A study of Mus musculus with 6 samples.

Results

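The genes described here encode the subunits of the oxidative phosphorylation machinery, and their mRNA levels were compared between splenic monocytes of mice with and without the IL-4 receptor alpha chain. Genes were chosen by annotated mouse symbol, as protein-coding genes of complexes I to IV and of the ATP synthase, and were kept if every library held at least 10 reads. Of 98 genes with such a symbol, 84 passed, out of 55421 genes in the files and 11364 protein-coding genes that passed the same minimum. They comprised 7 of the 13 protein-coding genes of the mitochondrial genome and 77 of 85 nuclear genes, namely 36 of complex I, 4 of complex II, 8 of complex III, 12 of complex IV and 17 of the ATP synthase. The symbol patterns leave out some true subunits, such as Cyc1, the cytochrome c1 of complex III, and assembly factors.

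Oxidative phosphorylation takes place in the inner mitochondrial membrane. Complexes I and II feed electrons from NADH and succinate to ubiquinone, complex III passes them on to cytochrome c, and complex IV hands them to oxygen. Complexes I, III and IV pump protons, and the ATP synthase uses the returning protons to make ATP. Most subunits are encoded in the nucleus and imported, while the mitochondrial genome encodes hydrophobic core subunits that are transcribed as long polycistronic RNAs. In macrophages, IL-4 signalling is known for a shift towards mitochondrial respiration, which is the background for looking at these genes in IL-4Rα-deficient monocytes.

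Each of the 6 libraries came from the splenic monocytes of 1 mouse. The 3 IL-4Rα-/- mice carried a full-body deletion of the receptor chain on the C57BL/6J background, not limited to myeloid cells. The 3 IL-4Rα+/+ mice were wild type. No treatment is listed, and the labels give neither age nor sex. Monocytes were enriched by negative selection, in which other cells are bound by antibodies and removed. Each library held 26807281 to 29033297 reads on genes. All 15 monocyte markers, among them Csf1r and Ly6c2, were detected, with a summed level of 21081 to 27392 CPM (counts after scaling every library to one total) in IL-4Rα+/+ and 23176 to 28368 in IL-4Rα-/-. Il4ra was at 137, 128 and 177 CPM in IL-4Rα+/+ replicates 1 to 3 and at 27.9, 79.4 and 31.8 CPM in IL-4Rα-/- replicates 1 to 3. All knockout libraries thus lay below all wild-type libraries, with replicate 2 the highest of the knockouts. That library was also the highest for most nuclear subunit genes, as described below, and a link was not tested. The log2 fold change was -1.67 (SE 0.41). The adjusted p was 0.618 by the quasi-likelihood test of edgeR, with p-values adjusted by Benjamini-Hochberg, and 0.0111 by DESeq2. Xist, expressed from the inactive X, was at 553 CPM in IL-4Rα+/+ replicate 1 and at 457 CPM in IL-4Rα-/- replicate 3, and at 3.73 CPM or less in the other libraries. Ddx3y, on the Y chromosome, was at 0, 149 and 136 CPM in IL-4Rα+/+ and at 131, 113 and 0.101 CPM in IL-4Rα-/- replicates 1 to 3. IL-4Rα+/+ replicate 1 and IL-4Rα-/- replicate 3 thus had the female pattern and the other libraries the male pattern, so each group held mice of both patterns.

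The mitochondrial genes are shown first with a read-length sequence, because copies of mitochondrial DNA in the nuclear genome bear on which of its genes can be counted. STAR's gene counts hold only reads with a single mapping place. The 75 bases of mt-Co2, a core subunit of complex IV, at chrM:7303-7377 (GRCm38, plus strand) were compared with the annotated pseudogenes Gm28661 at chr1:24615201-24615275 and Gm13341 at chr2:22587598-22587672, both on the minus strand. All are given 5′ to 3′ along the gene, and capitals mark a base that differs from mt-Co2.
mt-Co2: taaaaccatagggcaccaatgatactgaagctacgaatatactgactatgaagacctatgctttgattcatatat
Gm28661: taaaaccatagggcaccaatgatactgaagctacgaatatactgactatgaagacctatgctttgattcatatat
Gm13341: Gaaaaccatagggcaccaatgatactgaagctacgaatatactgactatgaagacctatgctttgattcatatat
The copy on chromosome 1 was identical over this stretch, and that on chromosome 2 had 1 difference.

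Of the 13 mitochondrial genes, 6 did not reach the minimum. mt-Co2 had 1 read in the 6 libraries together, mt-Nd3 had 1, and mt-Atp8, mt-Atp6, mt-Co3 and mt-Nd4l had 0, where 3 reads, the limit that a count of 0 allows, stood for 0.103 to 0.112 CPM per library. These genes lie side by side between positions 7013 and 10173 of the mitochondrial genome. An exact copy in an annotated transcript elsewhere was found for 99.5% of the 75-base windows of mt-Co2, 99.5% of mt-Atp6, 99.9% of mt-Co3, 97.8% of mt-Nd3 and 98.7% of mt-Nd4l. For mt-Atp8 no annotated copy was found, and only annotated transcripts were searched. It lies between mt-Co2 and mt-Atp6. On chromosome 1 the copy of mt-Atp6 ends at 24614651 and that of mt-Co2 starts at 24614885, and the genomic sequence between them was not searched. The matching pseudogenes on chromosome 1 themselves had 0 to 5 reads per library. Among the genes that were counted, mt-Nd4 had such a copy for 61.5% of its windows, mt-Co1 for 39.8%, mt-Nd2 for 5.71% and mt-Nd5 for 1.66%, and mt-Nd1, mt-Nd6 and mt-Cytb had none. The levels of mt-Nd4 and mt-Co1 below therefore rest on the unique part of each gene, and no level of the 6 uncounted genes can be given.

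**Figure D1:**
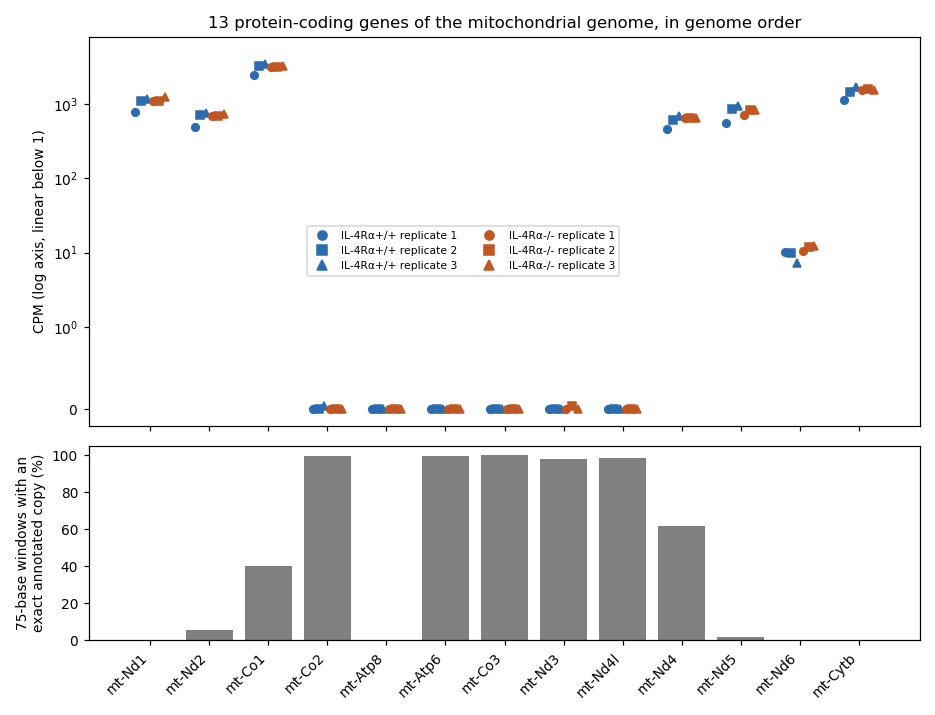
Upper panel, CPM of the 13 protein-coding genes of the mitochondrial genome in genome order, 1 point per library (log axis, linear below 1), and lower panel, the percentage of each gene's 75-base windows that have an exact copy in another annotated transcript. The block from mt-Co2 to mt-Nd4l sits at 0 or next to it in all libraries, and IL-4Rα+/+ replicate 1 is the lowest library for 6 of the 7 counted genes.

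None of the 7 counted mitochondrial genes passed the test, and in 6 of them the genotypes overlapped. mt-Co1, the catalytic core of complex IV and the highest of them, was at 2470, 3233 and 3520 CPM in IL-4Rα+/+ and at 3135, 3220 and 3251 CPM in IL-4Rα-/- replicates 1 to 3. mt-Cytb, the cytochrome b of complex III, was at 1155, 1464 and 1691 CPM in IL-4Rα+/+ and at 1550, 1589 and 1578 CPM in IL-4Rα-/-. In both genes the wild-type mice spanned the whole range of the knockout mice, since wild-type replicate 1 was low and replicate 3 high.

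The complex I genes of the mitochondrial genome had the same lowest library, with 1 exception. mt-Nd1 was at 781, 1109 and 1164 CPM in IL-4Rα+/+ and at 1109, 1119 and 1259 CPM in IL-4Rα-/-. mt-Nd5 was at 557, 874 and 938 CPM in IL-4Rα+/+ and at 715, 831 and 825 CPM in IL-4Rα-/-. Both had IL-4Rα+/+ replicate 1 as the lowest library, as did mt-Nd2 (496 to 772 against 689 to 732 CPM) and mt-Nd4 (462 to 692 against 644 to 660 CPM). mt-Nd6, which encodes the only protein made from the other strand of the mitochondrial DNA, was at 10.2, 10.02 and 7.29 CPM in IL-4Rα+/+ and at 10.5, 11.9 and 12.2 CPM in IL-4Rα-/-. It was the 1 mitochondrial gene whose groups did not overlap, and it overlaps mt-Nd5 on the opposite strand at its end.

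The log2 fold changes, given as IL-4Rα-/- over IL-4Rα+/+ throughout, were 0.33 (SE 0.17) for mt-Nd6, 0.19 (SE 0.16) for mt-Nd1, 0.14 (SE 0.15) for mt-Nd4, 0.13 (SE 0.14) for mt-Cytb, 0.10 (SE 0.16) for mt-Nd2, 0.06 (SE 0.14) for mt-Co1 and 0.00 (SE 0.20) for mt-Nd5. None of the 7 passed the test (edgeR's quasi-likelihood test, smallest adjusted p = 0.632), and none was under an unadjusted p of 0.05. Their median of 0.13 became -0.01 without IL-4Rα+/+ replicate 1 and 0.23 without IL-4Rα+/+ replicate 3. Per kilobase of transcript (RPKM), mt-Co1 had the highest level, at 1990 ± 351 in IL-4Rα+/+ and 2072 ± 38.9 in IL-4Rα-/- (SD, n = 3), and mt-Nd6 the lowest, at 17.7 ± 3.14 and 22.2 ± 1.75. The 7 genes together took 0.584%, 0.798% and 0.868% of the reads on genes in IL-4Rα+/+ and 0.799%, 0.798% and 0.852% in IL-4Rα-/-. In this share 1 wild-type library lay below all the others. The mitochondrial ribosomal RNA genes, which are no subunit genes, were at 563, 624 and 603 CPM against 799, 663 and 726 CPM for mt-Rnr2 (log2 fold change 0.29, edgeR unadjusted p = 0.0181, adjusted p = 0.618), and mt-Rnr1 had a log2 fold change of 0.27. The libraries were made from RNA captured by its poly(A) tail. Levels of mitochondrial RNAs, mt-Nd6 and the ribosomal RNAs among them, thus also depend on how well each was captured, which was not measured.

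Most nuclear subunit genes lay slightly higher in IL-4Rα-/- monocytes, by amounts that no single gene carried past the threshold. Of 77, 74 had a log2 fold change above 0, compared with 51.5% of the 13849 genes tested. The median was 0.18, against 0.01 over all genes tested. With a genome-wide trend with transcript length removed, the median was 0.07 and 59 of 77 genes were above 0. Without IL-4Rα-/- replicate 2 the median was 0.10. The 3 genes below 0 were Sdha, Atp5l and Atp5s. No nuclear or mitochondrial subunit gene was called at an adjusted p under 0.15 in edgeR's quasi-likelihood test, in which 0% of all genes were called and 1120 of 13849 genes had an unadjusted p under 0.05. DESeq2 called 0.571% of 14003 genes with an adjusted p and none of the 84 subunit genes, the smallest adjusted p being 0.509.

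At an unadjusted p under 0.05 in edgeR, 8 of the 77 nuclear genes were higher in IL-4Rα-/- and 0 were lower, where 3.72% of all genes tested were higher and 4.37% lower. In 18 of the 77 every knockout library lay above every wild-type library, compared with 7.63% of all genes, and in 0 of 77 every knockout library lay below, compared with 7.87%. The count of 8 depended on single mice: it was 27 without IL-4Rα+/+ replicate 3, 9 without IL-4Rα-/- replicate 3, 5 without IL-4Rα-/- replicate 1, 2 without IL-4Rα+/+ replicate 1, and 0 without IL-4Rα+/+ replicate 2 or without IL-4Rα-/- replicate 2. The median log2 fold change was 0.10 without IL-4Rα-/- replicate 2 and 70 of 77 genes stayed above 0. Without any 1 of the other mice, 73 or 74 of 77 were above 0. Genes of one machine vary together across libraries, so that the 77 genes are not 77 independent observations.

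**Figure D2:**
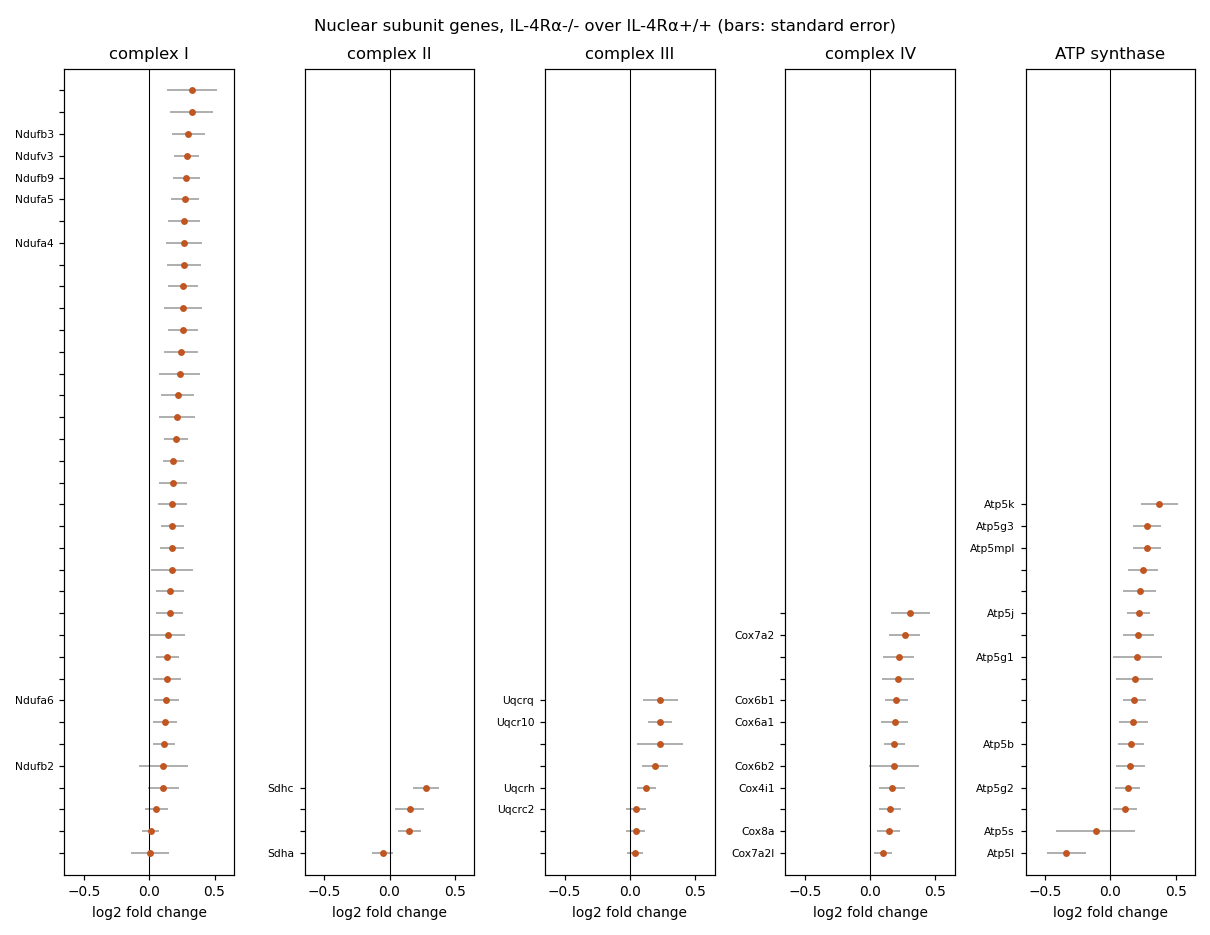
Log2 fold change (IL-4Rα-/- over IL-4Rα+/+, n = 3 libraries each) of the 77 nuclear subunit genes with its standard error from edgeR, by complex and sorted by value, with the names of the genes described in the text by rule and of Atp5l. Of the 77 points, 74 lie right of 0 and the exceptions are Sdha, Atp5l and Atp5s.

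By complex, the medians of the nuclear genes were close to each other. They were 0.18 for the 36 genes of complex I, 0.15 for the 4 of complex II, 0.16 for the 8 of complex III, 0.19 for the 12 of complex IV and 0.19 for the 17 of the ATP synthase. All genes of complexes I, III and IV were above 0, as were 3 of 4 in complex II and 15 of 17 in the ATP synthase. With the trend of fold changes with transcript length removed, as described below, 28 of 36 genes of complex I, 3 of 4 of complex II, 4 of 8 of complex III, 10 of 12 of complex IV and 14 of 17 of the ATP synthase were above 0. The medians then were 0.09, 0.05, 0.01, 0.04 and 0.09 in that order.

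In complex I, the entry point for electrons from NADH, the genes with the smallest p-values encode accessory subunits. Ndufv3, a small subunit of the NADH-oxidising flavoprotein module, was at 28.4, 29.99 and 32.2 CPM in IL-4Rα+/+ and at 33.7, 40.2 and 36.5 CPM in IL-4Rα-/-. The groups did not overlap, and the log2 fold change was 0.29 (SE 0.09, edgeR unadjusted p = 0.02005, adjusted p = 0.618). Ndufb9 was at 32.9, 32.2 and 34.5 CPM in IL-4Rα+/+ and at 36.1, 45.9 and 39.0 CPM in IL-4Rα-/- (log2 fold change 0.28, SE 0.10, edgeR unadjusted p = 0.0313). Ndufa5 was at 14.4, 14.4 and 16.3 CPM against 16.8, 19.3 and 18.6 CPM (log2 fold change 0.27, SE 0.11, edgeR unadjusted p = 0.0383). Both also had separate groups, with IL-4Rα-/- replicate 2 the highest library. Ndufb3 was at 48.3, 51.1 and 62.7 CPM in IL-4Rα+/+ and at 64.1, 74.6 and 60.6 CPM in IL-4Rα-/-, so that wild-type replicate 3 overlapped the knockouts (log2 fold change 0.30, SE 0.13, edgeR unadjusted p = 0.0545).

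Of 6 nuclear-encoded core subunits of complex I described here, 4 lay below the median of the complex. Ndufs1, which carries iron-sulfur clusters on the path from NADH, was at 79.9, 80.9 and 81.0 CPM in IL-4Rα+/+ and at 77.1, 84.6 and 81.6 CPM in IL-4Rα-/- (log2 fold change 0.01, SE 0.07). Ndufs7 had a log2 fold change of 0.05 (SE 0.09), Ndufs3 of 0.11 (SE 0.12) and Ndufv1, which binds NADH and the flavin, of 0.11 (SE 0.08). Ndufv2 and Ndufs8 were at 0.20 (SE 0.09) and 0.22 (SE 0.13). These 6 genes were picked for their role after their values were seen. In complex I, Ndufa6 had the highest level per length, at 146 ± 7.93 RPKM in IL-4Rα+/+ and 159 ± 16.6 in IL-4Rα-/- (SD, n = 3), and Ndufb2 the lowest, at 2.72 ± 0.554 and 2.92 ± 0.441. The value of Ndufb2 was taken over an annotated transcript of 4371 bases, and it overlaps 2 antisense genes.

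In complex II, succinate dehydrogenase, a membrane anchor had one of the smallest p-values of all and the flavoprotein lay below 0. Sdhc, a membrane anchor, was at 76.3, 78.5 and 89.3 CPM in IL-4Rα+/+ and at 101, 106 and 90.0 CPM in IL-4Rα-/-. The lowest knockout library lay just above the highest wild-type library, and the log2 fold change was 0.28 (SE 0.10, edgeR unadjusted p = 0.0245, adjusted p = 0.618). Sdha, the flavoprotein that oxidises succinate, was at 293, 267 and 259 CPM in IL-4Rα+/+ and at 272, 266 and 252 CPM in IL-4Rα-/- (log2 fold change -0.05, SE 0.08), and the groups overlapped. Sdhb, the iron-sulfur subunit, and Sdhd, the other anchor, both had a log2 fold change of 0.15. Per length, Sdha was the highest at 94.3 ± 6.06 RPKM in IL-4Rα+/+ and 90.9 ± 3.57 in IL-4Rα-/- and Sdhc the lowest at 25.7 ± 2.20 and 31.1 ± 2.51 (SD, n = 3).

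In complex III, Uqcr10, a small subunit, was at 38.5, 35.5 and 41.0 CPM in IL-4Rα+/+ and at 44.6, 49.1 and 41.5 CPM in IL-4Rα-/- (log2 fold change 0.23, SE 0.09, edgeR unadjusted p = 0.0431). The groups touched without overlap. The large subunits were closer to 0. Uqcrfs1, the Rieske iron-sulfur protein, had a log2 fold change of 0.04 (SE 0.06), and the core proteins Uqcrc1 and Uqcrc2 had 0.04 (SE 0.07) and 0.05 (SE 0.08). Among the genes past the count minimum, Uqcrc2 was the only one within 10 Mb of Il4ra, 4.89 Mb away on chromosome 7. Its levels were 132, 138 and 152 CPM in IL-4Rα+/+ and 147, 148 and 142 CPM in IL-4Rα-/-, with overlapping groups. Uqcrh, the hinge protein next to cytochrome c1, was the highest of complex III per length, at 227 ± 1.47 RPKM in IL-4Rα+/+ and 248 ± 15.4 in IL-4Rα-/-, and Uqcrq the lowest, at 40.1 ± 4.26 and 47.2 ± 7.22 (SD, n = 3).

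In complex IV no gene had an unadjusted p under 0.05. Cox4i1, the common form of a large nuclear subunit, had the highest level per length of all 77 nuclear genes, at 453 ± 27.7 RPKM in IL-4Rα+/+ and 509 ± 51.1 in IL-4Rα-/- (SD, n = 3). It was at 340, 330 and 371 CPM in IL-4Rα+/+ and at 388, 430 and 352 CPM in IL-4Rα-/-, so that knockout replicate 3 lay within the wild-type range. Several subunits of complex IV exist in tissue forms, and for most of them the monocytes held mainly 1 form.

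Cox4i2, the form of lung and of low oxygen, had 7 to 29 reads per library and was the gene just outside the minimum of 10. Cox6a1 was at 191 ± 14.1 RPKM in IL-4Rα+/+ and 218 ± 23.4 in IL-4Rα-/-, while its heart and muscle form Cox6a2 had 1 to 11 reads. Cox6b1 was at 180 ± 10.6 and 207 ± 17.4 RPKM, and Cox6b2, known from testis, at 10.5 ± 1.87 and 11.9 ± 1.43. Cox6b2 was the lowest of complex IV per length and, with at least 150 reads per library, lay well inside the minimum. Cox7a2 was at 85.2 ± 9.93 and 102 ± 11.3 RPKM. Cox7a2l, placed beside it here by its symbol and not as a tissue form, was at 125 ± 2.03 and 134 ± 5.33 RPKM. The muscle form Cox7a1 had 4 to 24 reads, and Cox8b had 0 reads in all libraries where Cox8a was at 200 ± 10.3 and 221 ± 19.1 RPKM (each SD, n = 3).

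Ndufa4, placed here in complex I by its symbol although its protein is now assigned to complex IV, was at 131 ± 17.1 RPKM in IL-4Rα+/+ and 157 ± 22.6 in IL-4Rα-/-, against 0 to 4 reads per library for its paralog Ndufa4l2. The other genes below the minimum were Cox7b2, Cox8c and a second Atp5o identifier, with 0 reads each.

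**Figure D3:**
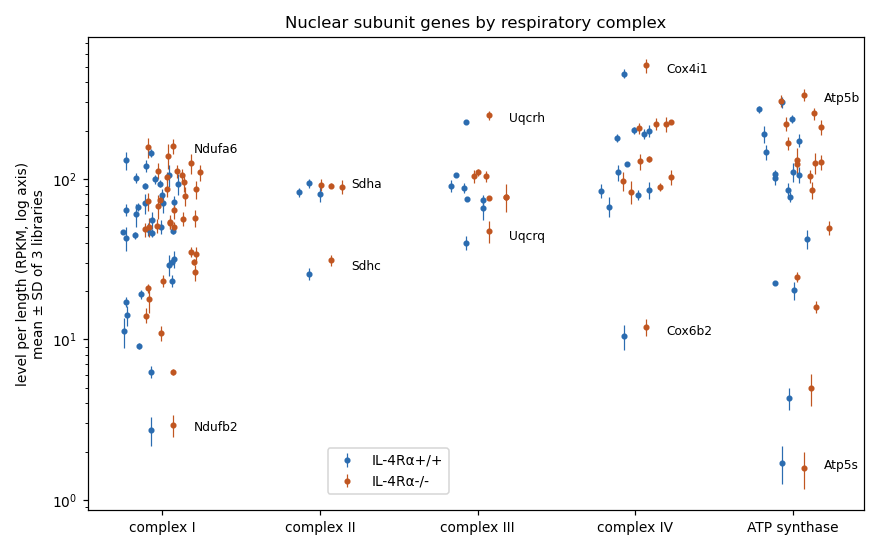
Level per length (RPKM, log axis) of the 77 nuclear subunit genes by complex, mean ± SD of the 3 libraries of each genotype, with the highest and lowest gene of each complex named. Cox4i1 is the highest and Atp5s the lowest, and the genotypes differ by log2 fold changes of -0.34 to 0.38.

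In the ATP synthase, genes of small membrane subunits had the smallest p-values. Atp5k, which encodes subunit e at the dimer interface, was at 34.7, 36.1 and 41.8 CPM in IL-4Rα+/+ and at 42.7, 59.1 and 44.5 CPM in IL-4Rα-/-. It had the largest log2 fold change of the 77, 0.38 (SE 0.15, edgeR unadjusted p = 0.0374, adjusted p = 0.618), with separate groups and IL-4Rα-/- replicate 2 as the highest library. Atp5mpl, a small proteolipid of the complex, was at 52.2, 47.1 and 57.6 CPM in IL-4Rα+/+ and at 58.9, 70.2 and 61.4 CPM in IL-4Rα-/- (log2 fold change 0.28, SE 0.11, edgeR unadjusted p = 0.0361). Atp5j, a subunit of the peripheral stalk, was at 86.2, 80.6 and 92.5 CPM against 95.3, 110 and 96.0 CPM (log2 fold change 0.22, SE 0.09, edgeR unadjusted p = 0.0513). In all 3 genes each knockout library lay above each wild-type library.

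Subunit c, which forms the rotating ring, is encoded by 3 genes for the same mature protein. Atp5g3 was at 119, 118 and 138 CPM in IL-4Rα+/+ and at 147, 169 and 140 CPM in IL-4Rα-/- (log2 fold change 0.28, SE 0.11, edgeR unadjusted p = 0.0362). In RPKM it stood at 173 ± 15.9 and 210 ± 21.4, against 22.4 ± 0.510 and 24.5 ± 1.83 for Atp5g2 and 4.3 ± 0.673 and 4.96 ± 1.11 for Atp5g1 (SD, n = 3). Of the 75-base windows of Atp5g2, 86.9% had an exact copy in another transcript, so that its level was counted on a small part of the gene. RPKM divides by the whole length and can understate such a gene. Scaled to the windows without a copy, mean levels over the 6 libraries were 213 for Atp5g3, 199 for Atp5g2 and 5.09 for Atp5g1. Which of Atp5g3 and Atp5g2 was the main form is therefore not settled. The log2 fold changes of Atp5g1 and Atp5g2 were 0.21 (SE 0.19) and 0.13 (SE 0.10).

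The catalytic subunit beta, Atp5b, had the highest level per length of the ATP synthase, at 300 ± 24.6 RPKM in IL-4Rα+/+ and 335 ± 27.8 in IL-4Rα-/- (SD, n = 3, log2 fold change 0.16, SE 0.10). This rank holds for RPKM. Scaled to the windows without a copy, mean levels over the 6 libraries were 363 for Atp5h, 351 for Atp5e and 330 for Atp5b. Atp5s, a factor that couples the motor parts, was the lowest of all nuclear genes at 1.71 ± 0.460 and 1.58 ± 0.406 RPKM. With 53 reads in its lowest library it was the gene just inside the minimum (log2 fold change -0.11, SE 0.30). Atp5l, subunit g, the partner of subunit e at the dimer interface, had the lowest log2 fold change, -0.34 (SE 0.15, edgeR unadjusted p = 0.0614). It was at 9.45, 11.6 and 12.0 CPM in IL-4Rα+/+ and at 7.96, 8.62 and 9.54 CPM in IL-4Rα-/-. The highest knockout library lay just above the lowest wild-type library, and 63.4% of the windows of Atp5l had a copy elsewhere. Over all 77 nuclear genes, 24 had a window with a copy and 9 had over 20% of such windows, while 35 overlapped another gene and 27 a gene on the opposite strand.

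The order of the libraries was much the same from gene to gene. Of the 77 nuclear genes, 68 had their highest level in IL-4Rα-/- replicate 2, 38 their lowest in IL-4Rα+/+ replicate 2 and 29 in IL-4Rα+/+ replicate 1. The median deviation from each gene's mean over the libraries, on the log2 scale, was -0.15, -0.17 and 0.03 in IL-4Rα+/+ replicates 1 to 3 and 0.03, 0.24 and 0.00 in IL-4Rα-/- replicates 1 to 3. IL-4Rα+/+ replicate 3 thus stood with IL-4Rα-/- replicates 1 and 3, and the remaining wild-type mice below them. The nuclear genes together took 0.646%, 0.636% and 0.715% of the reads on genes in IL-4Rα+/+ and 0.737%, 0.815% and 0.723% in IL-4Rα-/-. The lowest knockout share lay just above the highest wild-type share. As a sum of TMM-scaled CPM the groups overlapped, at 6554, 6384 and 7235 CPM in IL-4Rα+/+ and 7259, 8292 and 7043 CPM in IL-4Rα-/-. Mitochondrial genes did not follow this order, since their median deviation was -0.41 in IL-4Rα+/+ replicate 1, 0.17 in IL-4Rα+/+ replicate 3 and 0.09 in IL-4Rα-/- replicate 2.

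**Figure D4:**
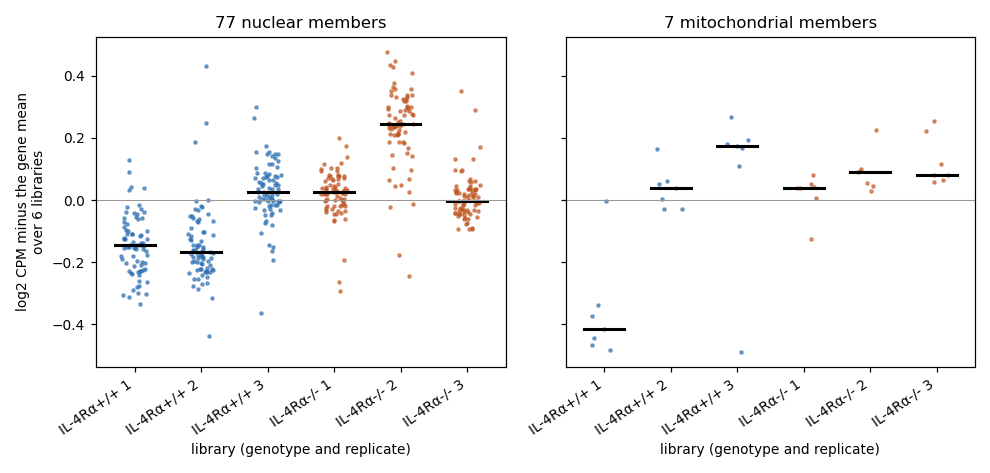
Deviation of log2 CPM from each gene's mean over the 6 libraries, 1 point per gene, for the 77 nuclear (left) and 7 mitochondrial (right) subunit genes, with black bars at the median. The nuclear median is highest in IL-4Rα-/- replicate 2 (0.24) and lowest in IL-4Rα+/+ replicate 2 (-0.17), and the mitochondrial median is lowest in IL-4Rα+/+ replicate 1 (-0.41).

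Measures of the libraries moved with the genotypes too. Reads outside genes made up 10.9%, 11.7% and 10.3% of all reads in IL-4Rα+/+ and 9.12%, 8.87% and 9.68% in IL-4Rα-/-, and reads with several mapping places 8.30%, 8.32% and 8.86% against 9.19%, 9.35% and 9.02%. Neither overlapped between the groups. Red pulp macrophage markers, all 10 with a log2 fold change above 0, summed to 3592 to 4191 CPM in IL-4Rα+/+ and 4695 to 7324 in IL-4Rα-/-. Erythroid markers, 11 of 11 above 0, summed to 73.5 to 141 and 182 to 443 CPM, B and plasma cell markers, 8 of 9 above 0, to 494 to 550 and 572 to 755 CPM, and eosinophil, basophil and mast cell markers, 8 of 9 above 0, to 77.5 to 91.1 and 133 to 211 CPM.

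IL-4Rα-/- replicate 2, the highest library for most nuclear subunit genes, was also the highest for neutrophil and pancreatic acinar markers. Neutrophil markers, 10 of 11 tested above 0, summed to 60.2 to 275 CPM in IL-4Rα+/+ and to 229, 719 and 126 CPM in IL-4Rα-/- replicates 1 to 3. Pancreatic acinar markers, 11 of 11 tested above 0, summed to 10.5 to 51.2 CPM and to 45.1, 342 and 19.6 CPM. In both lists the genotypes overlapped, and only IL-4Rα-/- replicate 2 lay above the wild-type range. T and NK cell markers (44.4 to 113 against 41.0 to 101 CPM, 4 of 9 above 0), dendritic cell markers (499 to 826 against 470 to 652 CPM, 3 of 8 above 0) and platelet markers (2.93 to 3.89 against 3.43 to 6.997 CPM, 3 of 3 tested above 0 and 1 of 5 at 0 in all libraries) overlapped. Within the monocyte markers, 7 of 15 tested had a log2 fold change above 0, and genes of the Ly6C-high and Ly6C-low subsets differed between libraries, as seen in 3 genes named after their values were seen. Ccr2, a marker of Ly6C-high monocytes, was at 380, 1045 and 1668 CPM in IL-4Rα+/+ and at 826, 2008 and 979 CPM in IL-4Rα-/-. F13a1, of the same subset, was at 325, 791 and 1853 CPM against 826, 2123 and 1074 CPM. Ace, a marker of Ly6C-low monocytes, was at 2774, 2123 and 1088 CPM against 1745, 710 and 1604 CPM. IL-4Rα-/- replicate 2 and IL-4Rα+/+ replicate 3 thus had the most Ccr2 and F13a1 and the least Ace, and the genotypes overlapped. Ly6c2 did not share this order, at 242, 380 and 427 CPM in IL-4Rα+/+ and at 339, 592 and 503 CPM in IL-4Rα-/-. Its highest libraries were IL-4Rα-/- replicates 2 and 3. The part of the monocyte subsets, of these other cells and of the library measures in the values of the subunit genes was not tested. In these bulk libraries a change in the cells that were recovered and a change in mRNA per cell cannot be told apart.

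Most nuclear subunit genes are short, and fold changes across the genome followed transcript length. The median transcript of the 77 genes was 861 bases long, from 371 to 4715, against 2777 over all genes tested, and 73 of the 77 were shorter than that. Over 13837 genes with a length, the log2 fold change and the length had a Spearman's rho of -0.25, with genes not being independent replicates. With the length trend of each library removed, 46.0% of all genes were above 0, beside the 59 of 77 nuclear genes given above. In that fit 0 nuclear genes were higher at an unadjusted p under 0.05 and 1, Atp5l, was lower. For the mitochondrial genes the median then was 0.03. With a trend with GC content removed in its place, the nuclear median was 0.15, 72 of 77 were above 0 and 0 were higher at an unadjusted p under 0.05.

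**Figure D5:**
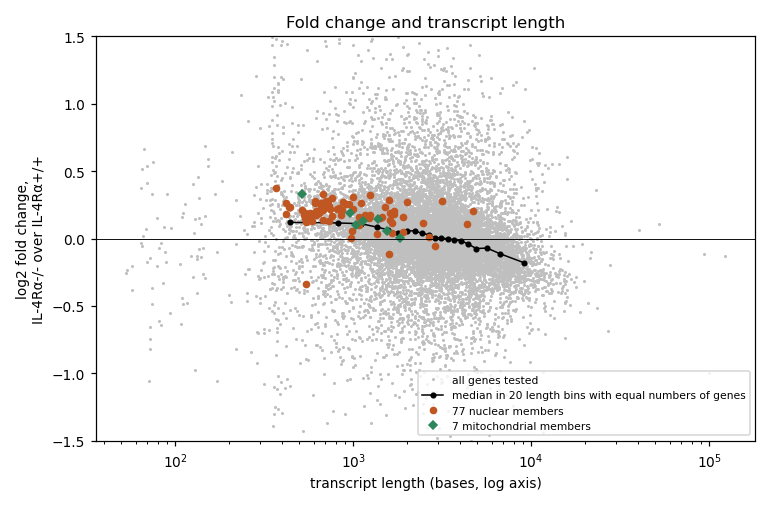
Log2 fold change (IL-4Rα-/- over IL-4Rα+/+) against transcript length (log axis) for all genes tested in grey, with the median in bins of length as a black line, the 77 nuclear subunit genes in orange and the 7 mitochondrial ones in green. The line falls from short to long genes, and most nuclear subunit genes lie above it, at a median of 0.18 and a median length of 861 bases.

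Other housekeeping gene families also lay mostly above 0. The median log2 fold change was 0.09 for 93 cytosolic ribosomal protein genes (81 above 0), 0.15 for 77 mitochondrial ribosomal protein genes (70 above 0) and 0.13 for 39 proteasome subunits (35 above 0). With the length trend removed these medians were -0.02, 0.07 and 0.04, beside 0.07 for the nuclear subunit genes. The subunit genes and the mitochondrial ribosomal protein genes thus had the same median in that fit, and no difference between the lists was tested.

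The partners of the complexes were measured in lists of their own. Of 50 genes tested in the list of assembly factors, which also held Ndufab1, 37 were above 0 with a median of 0.11. Of these 50 genes, 0 had an unadjusted p under 0.05 in edgeR. Of 19 genes for electron carriers and their supply, 16 were above 0 with a median of 0.09 and 0 under that p. Among them Cyc1, a subunit the symbols leave out, was at 77.3, 74.9 and 83.5 CPM in IL-4Rα+/+ and at 73.2, 90.3 and 74.98 CPM in IL-4Rα-/- (log2 fold change 0.02, SE 0.10). Of 18 TCA cycle genes, 13 were above 0 with a median of 0.05 and 0 under that p. Of 25 genes tested for expression of the mitochondrial genome and mitochondrial biogenesis, 11 were above 0 with a median of -0.01.

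In this last list 1 gene, Slirp, was under an unadjusted p of 0.05. Its protein binds and stabilises mitochondrial mRNAs, and it was at 19.0, 19.0 and 19.97 CPM in IL-4Rα+/+ and at 24.5, 24.9 and 22.7 CPM in IL-4Rα-/- (log2 fold change 0.32, SE 0.08, edgeR unadjusted p = 0.00709, adjusted p = 0.618). Among carriers, uncouplers and inhibitors 12 of 12 tested were above 0 with a median of 0.15. Of these, Atpif1, the inhibitor of reverse rotation of the ATP synthase, was at 43.6, 43.8 and 53.8 CPM in IL-4Rα+/+ and at 58.8, 68.1 and 56.6 CPM in IL-4Rα-/- (log2 fold change 0.38, SE 0.12, edgeR unadjusted p = 0.0157, adjusted p = 0.618). In both genes the groups did not overlap, and none of the lists held a gene that passed the adjusted threshold.

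The promoters of the nuclear subunit genes were searched for short motifs, which the choice of genes did not use. NRF1, GABP of the ETS family, YY1 and ERRα are known regulators of respiratory genes. In RefSeq promoter windows (GRCm38.p6, 250 bases before to 50 after the start), 65 of the 77 genes had 70 windows, and 37 of these held none of the motifs searched. The NRF1 core GCGCATGC, searched like all motifs on both strands, was in 14.3% of them and in 2.71% of all 32851 windows. The ETS and GABP core CCGGAAG was in 22.9% against 8.86% and the YY1 core AAGATGGC in 14.3% against 2.75%. The ERR core TCAAGGTCA was in 2.86%, only 2 of the 70 windows, against 0.423%, and the TATA box TATAAA in 8.57% against 13.6%. Windows of protein-coding genes held the NRF1 core in 3.51%, the ETS core in 11.6% and the YY1 core in 3.05%. The median GC content was 58% in the windows of subunit genes and 52.7% in all windows. The cores do not contain one another, although the NRF1 core and its reverse complement overlap where a site is a palindrome.

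The 250 bases before the start are shown for 4 genes, chosen after the search because a window of each held at least 2 of the motifs. Atp5k and Atp5j were among the smallest p-values above, and Atp5l had the lowest fold change. For each gene the window with the most motifs was taken, and the 4 genes are listed here with their places. They are Cox6a1 at chr5:115348959-115349208, minus strand, Atp5k at chr5:108434400-108434649, minus strand, Atp5j at chr16:84834977-84835226, minus strand and Atp5l at chr9:44920743-44920992, minus strand. Each is printed 5′ to 3′ along its gene, and capitals mark matches to the motifs on either strand.
Cox6a1: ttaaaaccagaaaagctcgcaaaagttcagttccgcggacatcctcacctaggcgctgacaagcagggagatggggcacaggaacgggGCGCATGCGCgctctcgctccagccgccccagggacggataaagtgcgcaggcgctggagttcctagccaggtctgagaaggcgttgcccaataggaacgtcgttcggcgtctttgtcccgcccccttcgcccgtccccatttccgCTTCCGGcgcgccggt
Atp5k: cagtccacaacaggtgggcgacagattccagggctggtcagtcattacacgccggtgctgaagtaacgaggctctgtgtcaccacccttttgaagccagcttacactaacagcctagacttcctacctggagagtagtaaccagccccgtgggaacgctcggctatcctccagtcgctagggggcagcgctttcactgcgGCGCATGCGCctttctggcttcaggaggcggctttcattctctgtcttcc
Atp5j: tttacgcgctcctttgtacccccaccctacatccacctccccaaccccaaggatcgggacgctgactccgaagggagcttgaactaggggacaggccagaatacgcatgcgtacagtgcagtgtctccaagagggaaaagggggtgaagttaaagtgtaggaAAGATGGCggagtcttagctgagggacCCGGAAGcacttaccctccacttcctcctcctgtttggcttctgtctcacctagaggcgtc
Atp5l: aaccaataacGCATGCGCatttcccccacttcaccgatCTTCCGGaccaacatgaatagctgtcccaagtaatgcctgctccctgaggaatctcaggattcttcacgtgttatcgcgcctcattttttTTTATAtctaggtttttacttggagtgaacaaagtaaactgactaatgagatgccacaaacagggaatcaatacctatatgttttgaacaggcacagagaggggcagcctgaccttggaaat
Cox6a1 shows the NRF1 and ETS cores, Atp5k the NRF1 core, Atp5j the YY1 and ETS cores and Atp5l the NRF1, ETS and TATA motifs. For Atp5j another window, at chr16:84835576-84835875 on the minus strand and not printed, held none of the motifs. Atp5k and Atp5l, with log2 fold changes of 0.38 and -0.34, both held an NRF1 core. No binding was measured, and a match describes letters only.

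The 77 nuclear genes lie on 19 chromosomes. The 3 on the X chromosome, Ndufa1, Ndufb11 and Cox7b, had log2 fold changes of 0.26 (SE 0.15), 0.26 (SE 0.11) and 0.31 (SE 0.15), within the range of the others. With the Xist level as a covariate, 5 of the 77 were higher at an unadjusted p under 0.05 in edgeR and 74 of 77 were above 0.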

How the data were processed

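The authors aligned single-end reads of 75 bases to GRCm38 with STAR 2.6.1a and the Gencode annotation, and deposited raw counts per gene without normalization. The submitters' processing notes also name bcl2fastq 2.19.1.403, RSEM and DESeq2 1.22.2. The kit was directional, but which strand column the deposited counts hold is not given in the sources used here, so genes with an antisense neighbour are uncertain. The lines with which STAR sums up unmapped (1.32% to 1.66% of all reads), multimapping, unassigned and ambiguous (1.39% to 1.52%) reads were left out of the tests.

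Symbols, positions, lengths and transcript sequences came from a near Gencode release on the same build, which held 55240 of 55421 identifiers. Libraries were grouped by genotype. Genes passing filterByExpr of edgeR (minimum count 10) were normalized by TMM and tested with edgeR 4.0.16 in R 4.3.3 (quasi-likelihood test, Benjamini-Hochberg adjustment over all genes, threshold 0.15). CPM uses TMM-scaled totals, and RPKM is CPM per kilobase of 1 annotated transcript. DESeq2 1.42.0 was an alternative. Trends with length or GC content were removed per library by loess (span 0.5). The fits were also run on simulated counts with planted changes much larger than those of the subunit genes, so these runs do not bear on shifts this small. Each library is 1 mouse, and p-values measure the spread between these mice.

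Named genes were the mitochondrial genes, the highest and lowest gene per length of each complex, the 10 nuclear genes with the smallest p-values, genes at the count minimum, 7 paralog sets, subunit genes within 10 Mb of Il4ra and, in other lists, at most 4 genes with an unadjusted p under 0.05. A few further genes are named for their role or their place at the end of a range. The values of 1 core subunit gene are not reported here. The subunit genes and lists were chosen with earlier results of these data known. The limit that a count of 0 allows covers counting error only.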

Additional observations from a re-analysis of the deposited data

How the results depend on the processing

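No subunit gene was called under any normalization, filter, test, covariate or left-out mouse that was run. The median log2 fold change of the nuclear genes stayed above 0 in all of them, from 0.07 with the length trend removed to 0.25 without IL-4Rα+/+ replicate 3. The count of nuclear genes above 0 was 59 to 74, an alternative added after seeing the data.

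Nuclear genes higher at an unadjusted p under 0.05, 8 in the main test, numbered 21 with upper quartile normalization, 12 with a minimum count of 50, 5 with the Xist level as a covariate, 1 with the replicate block and 0 with the length or the GC trend removed. Leaving out 1 mouse gave 0 to 27. Genes lower numbered 1 with the length trend removed, and 0 to 1 with 1 mouse left out. Same-numbered libraries did not deviate together (r = 0.184, -0.271 and -0.296 for numbers 1 to 3, and 2 of 6 libraries correlated best with their own number), so the replicate block pairs libraries by number only. It changed no other call. Il4ra had an adjusted p of 0.0111 with DESeq2 at a log2 fold change of -1.67.

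With the length trend removed, log2 fold changes turned to -0.0082 for mt-Nd2, -0.068 for mt-Nd5, -0.024 for mt-Co1, -0.016 for Ndufa6, -0.024 for Uqcrh, -0.0048 for Cox7a2l, -0.0076 for Cox8a, -0.0033 for Atp5g2, -0.015 for Uqcrc2, -0.028 for Ndufs1, -0.0024 for Ndufs3, -0.058 for Ndufs7, -0.031 for Uqcrc1 and -0.055 for Uqcrfs1. In all, 15 of the 74 nuclear genes above 0 turned. That of mt-Nd5 was -0.00016 with DESeq2's size factors, -0.0013 without a filter and -0.0036 with the Xist covariate, and that of Ndufs1 was -0.010 with the GC trend removed. With 1 mouse left out the log2 fold changes ranged from -0.066 to 0.23 for mt-Nd2, from -0.0069 to 0.27 for mt-Nd4, from -0.20 to 0.14 for mt-Nd5, from -0.0057 to 0.27 for mt-Cytb, from -0.077 to 0.17 for mt-Co1, from -0.34 to 0.094 for Atp5s, from -0.023 to 0.29 for Ndufb2, from -0.021 to 0.040 for Ndufs1, from -0.033 to 0.093 for Ndufs7 and from -0.088 to 0.000080 for Sdha. The median of the mitochondrial genes ranged from -0.0069 to 0.23 in the same way. The cause was not tested. All values rest on 3 mice per genotype, and those of genes with copies elsewhere on the reads that could be placed.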
